A study of Homo sapiens with 15 samples.

Results

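In H1299 cells that had glucose, NH4Cl was set against glutamine as the added source of nitrogen. H1299 is an established cell line that came from a human lung carcinoma of the non-small cell kind, taken from a lymph node deposit. The comparison took all 3 libraries labelled glucose with NH4Cl and all 3 labelled glucose with glutamine, 6 of the 15 libraries of the series, and every gene of the count table. The cells had been in full RPMI 1640 with serum, were washed, and then spent 12 h in serum-free RPMI 1640. To that medium 5 mM glucose and 4 mM NH4Cl, an ammonium salt, were added in the one group, and 5 mM glucose and 4 mM glutamine in the other. The NH4Cl group is recorded with 0 mM glutamine, and the glutamine group with 0 mM NH4Cl. The 3 libraries with 5 mM glucose alone, a parallel medium also sampled after 12 h, are given beside them for reference. They are not a starting level. Libraries were made from poly(A) RNA, and the labels call the cells triplicate without naming separate cultures or days. The p-values therefore rest only on the scatter between libraries of the same medium, estimated over all 15 libraries, and that scatter may be technical.

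Glutamine carries an amide nitrogen and an amino nitrogen. Cells use the amide to build asparagine, purines, pyrimidines and amino sugars, and the carbon skeleton, once it is glutamate, feeds the citric acid cycle, transamination and glutathione. Ammonium supplies nitrogen without carbon, and glutamine synthetase can join it to glutamate. When an amino acid runs short, the kinase GCN2 phosphorylates the translation factor eIF2, which raises translation of the transcription factor ATF4, and ATF4 in turn drives genes for amino acid synthesis, uptake and tRNA charging. Sterol-regulated SREBP factors drive genes of cholesterol and fatty acid synthesis after they leave the endoplasmic reticulum. Ammonium chloride is also a weak base that enters acidic compartments such as lysosomes.

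The 6 libraries held 14914127 to 17300396 counts each, so that a floor of 3 counts lay between 0.173 and 0.201 CPM, covering counting error only. Glutamine replicate 3 stood apart in rare transcripts. It listed 17307 genes at 1 to 9 counts, against 9293 to 11013 in the other 5 libraries, and replicate 1 of glucose alone listed 18496. The keratin genes KRT8 and KRT18 and the vimentin gene VIM were abundant, whereas the epithelial genes EPCAM and CDH1 had at most 13 and 5 counts in a library. The lung genes NKX2-1 and SFTPC had at most 5 and 2 counts. The tissue label names a lymph node, yet the leukocyte markers PTPRC, CD3E, MS4A1 and CD79A had at most 12, 1, 2 and 6 counts. CORO1A, also on that list, had at most 93, and the summed level of the list's 6 markers was 2.34 to 2.65 CPM with NH4Cl and 5.48 to 6.41 CPM with glutamine. The leukocyte markers named, other than CORO1A, were at or near 0 in both media.

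Levels are given in CPM, the counts of a gene per 1000000 of the TMM-scaled library total, for each library or as mean ± SD of 3 libraries. Log2 changes are NH4Cl minus glutamine. Their ± is a standard error derived from the quasi-likelihood test below, the absolute change over the square root of its F statistic. A gene is called where edgeR's quasi-likelihood test, adjusted by Benjamini-Hochberg across the 16889 genes tested, gave a p under 0.05. By that test 5276 genes were higher and 5642 lower with NH4Cl than with glutamine, 31.2% and 33.4% of the genes tested. The libraries of the same medium differed so little, with a common biological coefficient of variation of 0.0221, that small changes were called, and the median size of a log2 change over all genes was 0.34. Changes of at least 2-fold were called for 835 higher and 761 lower genes, 4.94% and 4.51%, or 9.45% in all. Against a change of 1.2-fold, 3045 genes were called higher and 3371 lower, 18% and 20%, or 38% in all. The median log2 change of all genes was -0.01.

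**Figure D1:**
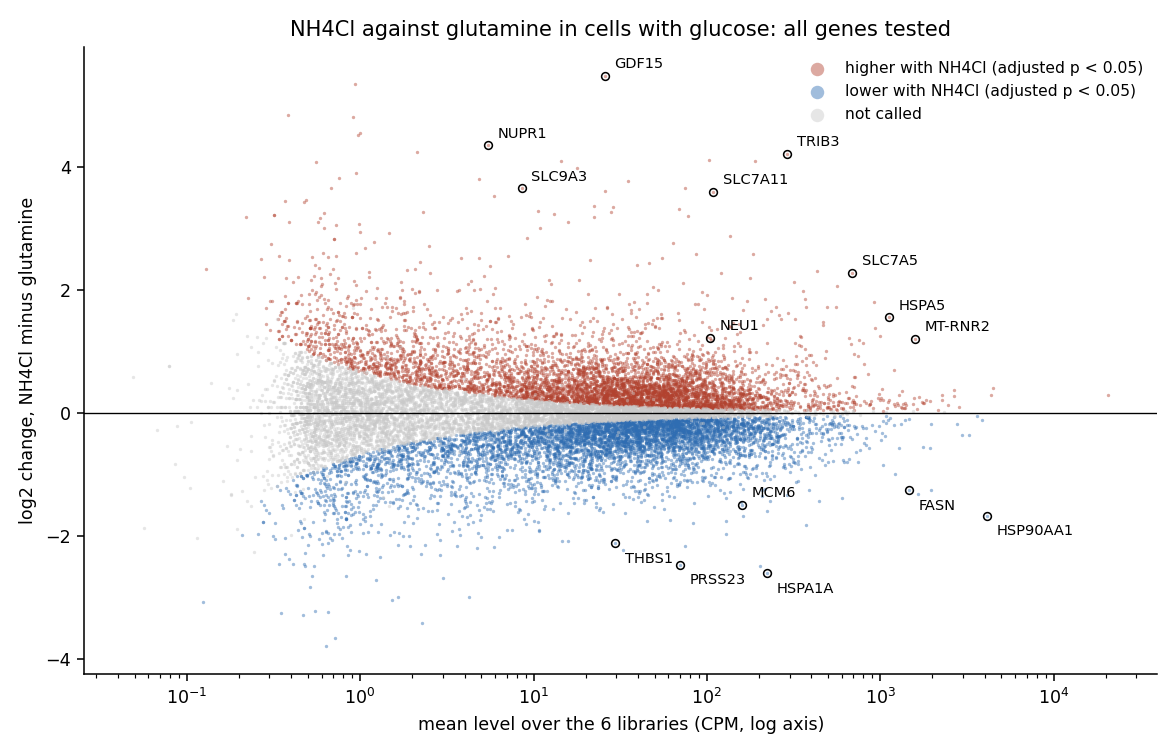
Each point is 1 of 16889 genes, with its mean level over the 6 libraries in CPM on a log axis and its log2 change between glucose with NH4Cl and glucose with glutamine. Red points were called higher with NH4Cl, blue points lower and grey points were not called. The circled genes run from GDF15 at 5.47 to HSPA1A at -2.60 log2 units.

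Genes of the amino acid shortage response stood far higher with NH4Cl than with glutamine, and closer to their level with glucose alone. Of 20 factors and feedback genes of the ATF4 pathway, all of which passed the low-count filter, 17 were higher and 1 lower with NH4Cl than with glutamine, and 15 were at least 2-fold higher. The median log2 change was 1.96. Set against glucose alone, the median was -0.18 with NH4Cl and -2.13 log2 units with glutamine. By the same test the NH4Cl libraries stood with 3 members above and 12 below glucose alone, where 12.7% and 16.9% of all genes tested were called above and below. ATF4 itself had 569, 568 and 571 CPM with NH4Cl, against 173, 172 and 173 CPM with glutamine and 611 ± 11.2 CPM with glucose alone. The NH4Cl libraries lay above all glutamine libraries by 1.72 ± 0.022 log2 units, with an adjusted p of 1.79e-139 by edgeR's quasi-likelihood test. PPP1R15A encodes the subunit that directs a phosphatase to eIF2 and so ends the response. Its level was 240.0, 234 and 240.4 CPM with NH4Cl, against 33.2, 33.6 and 30.7 CPM with glutamine and 262 ± 5.36 CPM with glucose alone, a log2 change of 2.87 ± 0.03.

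TRIB3, whose protein feeds back on ATF4, had 552, 539 and 556 CPM with NH4Cl, against 31.2, 30.3 and 27.8 CPM with glutamine and 656 ± 5.10 CPM with glucose alone. DDIT3, for the stress factor CHOP, had 194, 187 and 199.6 CPM with NH4Cl, against 10.6, 10.55 and 12.2 CPM with glutamine and 184 ± 2.20 CPM with glucose alone. In both genes the 3 NH4Cl libraries stood many times above those with glutamine, by 4.21 ± 0.03 and 4.11 ± 0.044 log2 units.

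SESN2 encodes a leucine sensor that restrains mTORC1, the kinase complex that couples nutrients to growth, and it had 351, 357 and 364 CPM with NH4Cl, against 21.1, 20.8 and 20.8 CPM with glutamine and 453 ± 7.55 CPM with glucose alone. DDIT4, another restraint on mTORC1, had 134, 138 and 144 CPM with NH4Cl, against 11.2, 11.7 and 10.4 CPM with glutamine. The SESN2 groups were far apart, with a log2 change of 4.09 ± 0.034 (adjusted p = 5.21e-172), and that of DDIT4 was 3.65 ± 0.046. NUPR1, a gene for a small stress-induced chromatin protein, had 9.6, 10.9 and 10.8 CPM with NH4Cl, against 0.113, 0.834 and 0.587 CPM with glutamine. The glutamine values of NUPR1 rest on 2 to 14 counts in a library, and its log2 change of 4.34 was 3.88 without glutamine replicate 1 and 4.84 without replicate 2. With glucose alone it stood at 5.72 ± 0.465 CPM, below all 3 NH4Cl libraries. The gene of GCN2 itself, EIF2AK4, was called in the other direction at -0.14 ± 0.029 log2 units, a change not called against 1.2-fold. EIF2AK3, which encodes the related kinase PERK, was not called (0.04 ± 0.094 log2 units, adjusted p = 0.704).

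CHAC1, which encodes an enzyme that breaks down glutathione, had 54.5, 50.5 and 52.8 CPM with NH4Cl, against 5.36, 5.36 and 4.86 CPM with glutamine and 64.5 ± 0.857 CPM with glucose alone. It was higher with NH4Cl by 3.34 ± 0.071 log2 units, with no overlap between both media. Its promoter is shown because it holds a C/EBP-ATF response element, the kind of site to which ATF4 binds. The search used the letters TGATGNAA on both strands within 250 bases before and 50 after the start of 27305 RefSeq promoters (GRCh38.p14), and 3.67% of all of them held it, or 1.67% of those of genes tested. Among 16 members of the ATF4 list that had a promoter there, 2 held it. The 250 bases before the start, chr15:40953221-40953470, plus strand, read as follows, with the element in capitals.
CHAC1: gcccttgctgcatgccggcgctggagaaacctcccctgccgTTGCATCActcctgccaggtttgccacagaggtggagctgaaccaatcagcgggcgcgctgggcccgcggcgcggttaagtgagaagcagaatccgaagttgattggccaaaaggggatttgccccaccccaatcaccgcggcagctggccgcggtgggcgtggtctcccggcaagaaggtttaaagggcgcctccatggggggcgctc

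For aminoacyl-tRNA synthetases, which charge tRNAs with amino acids, the cytosolic and the mitochondrial list differed in their balance of higher and lower members. Of 20 genes on the cytosolic list 12 were higher and 6 lower with NH4Cl, and 10 were at least 2-fold higher, with a median log2 change of 0.97. GARS1, for glycine, had 759.5, 758 and 745 CPM with NH4Cl, against 227, 230.3 and 226 CPM with glutamine and 779.6 ± 21.5 CPM with glucose alone. WARS1, for tryptophan, had 396, 388 and 394 CPM with NH4Cl, against 129.6, 131 and 131 CPM with glutamine. Their log2 changes were 1.73 ± 0.021 and 1.59 ± 0.024, with both groups of libraries well apart. SARS1, for serine, and AARS1, for alanine, followed at 1.53 ± 0.024 and 1.48 ± 0.021 log2 units. The genes below glutamine were FARSA, a subunit of the phenylalanine enzyme (-0.75 ± 0.038 log2 units), VARS1 for valine (-0.43 ± 0.026), HARS1, KARS1, RARS1 and QARS1. The other subunit of the phenylalanine enzyme, FARSB, was not called, with a log2 change of 0.01 ± 0.035. QARS1, which charges glutamine, had the smallest change of the 6 at -0.16 ± 0.028 log2 units. Among 17 mitochondrial synthetase genes 10 were lower and 2 higher, with a median of -0.27 log2 units, such as LARS2 (-0.71 ± 0.066), while HARS2 was higher (0.35 ± 0.047).

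The C/EBP-ATF response element lay in 6 of the 16 cytosolic synthetase promoters in the table. All 6 belonged to genes called higher with NH4Cl, of which 10 had a promoter there, and 0 to the 5 called lower. They were AARS1, CARS1, IARS1, MARS1, NARS1 and TARS1. Other lists differed. Amino acid transporters held the element in 3 of 12 promoters of higher genes and 1 of 4 of lower genes. Mitochondrial synthetases held it in 0 of 2 and 1 of 7, and genes of amino acid synthesis in 3 of 7 and 0 of 3. A match is a description of letters and not of binding. The pair with the largest changes whose match lies before the start is shown, AARS1 (chr16:70289507-70289756, minus strand) and IARS1, for isoleucine (chr9:92293698-92293947, minus strand), with the element in capitals.
AARS1: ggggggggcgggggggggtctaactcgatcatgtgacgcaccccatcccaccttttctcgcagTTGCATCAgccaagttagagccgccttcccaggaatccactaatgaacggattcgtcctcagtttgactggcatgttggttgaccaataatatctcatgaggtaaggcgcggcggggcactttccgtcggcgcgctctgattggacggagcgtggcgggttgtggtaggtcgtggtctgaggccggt
IARS1: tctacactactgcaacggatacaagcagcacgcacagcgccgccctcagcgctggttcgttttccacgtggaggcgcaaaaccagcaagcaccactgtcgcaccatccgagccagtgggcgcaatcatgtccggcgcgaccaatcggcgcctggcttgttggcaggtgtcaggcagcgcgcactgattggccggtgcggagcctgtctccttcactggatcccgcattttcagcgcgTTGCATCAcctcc

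Amino acid transporter genes were mostly higher with NH4Cl. Of 22 that passed the filter, among 25 listed, 14 were higher and 6 lower, with 11 at least 2-fold higher and a median of 0.97 log2 units. SLC7A5, the light chain of the leucine transporter LAT1, had 1143, 1143 and 1137 CPM with NH4Cl, against 248, 232 and 227 CPM with glutamine and 1562 ± 17.8 CPM with glucose alone. SLC3A2, its heavy chain, had 516, 508 and 534 CPM with NH4Cl, against 120.1, 120.0 and 117 CPM with glutamine. Both stood several times above every glutamine library, by 2.28 ± 0.02 and 2.12 ± 0.023 log2 units. SLC7A11, which brings in cystine, was higher by 3.59 ± 0.041, and the glycine transporter gene SLC6A9 by 3.27 ± 0.12 log2 units. SLC38A2 and SLC1A5, whose proteins carry glutamine itself, were higher by 1.25 ± 0.019 and 1.28 ± 0.03 log2 units. The taurine transporter gene SLC6A6 went the other way at -1.37 ± 0.058 log2 units, with 17.7, 18.3 and 20.1 CPM with NH4Cl, against 49.96, 49.5 and 45.7 CPM with glutamine.

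Of 18 genes of amino acid synthesis 12 were higher and 5 lower with NH4Cl, 8 of them at least 2-fold higher, with a median of 0.79 log2 units. PHGDH, which commits glycolytic carbon to serine, had 344, 335 and 342 CPM with NH4Cl, against 94.9, 93.2 and 95.9 CPM with glutamine and 344 ± 8.68 CPM with glucose alone. Its log2 change of 1.84 ± 0.027 set both groups apart, and PSAT1, the next enzyme, followed with 1.63 ± 0.024. GOT1, the cytosolic aspartate aminotransferase gene, had 289, 285 and 302 CPM with NH4Cl, against 63.0, 65.9 and 62.2 CPM with glutamine. Its mitochondrial partner GOT2 had 95.6, 98.6 and 95.1 CPM with NH4Cl, against 153, 159 and 152 CPM with glutamine. The pair thus moved apart, by 2.20 ± 0.029 for GOT1 and -0.68 ± 0.031 log2 units for GOT2. ASNS, the asparagine synthetase gene, had 19.6, 20.3 and 18.4 CPM with NH4Cl, against 2.54, 2.15 and 2.56 CPM with glutamine. It shares sequence with its pseudogene ASNSP1, which had 32.7, 35.4 and 32.8 CPM with NH4Cl, against 2.42, 1.97 and 1.98 CPM with glutamine, so the split of reads between both is uncertain.

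**Figure D2:**
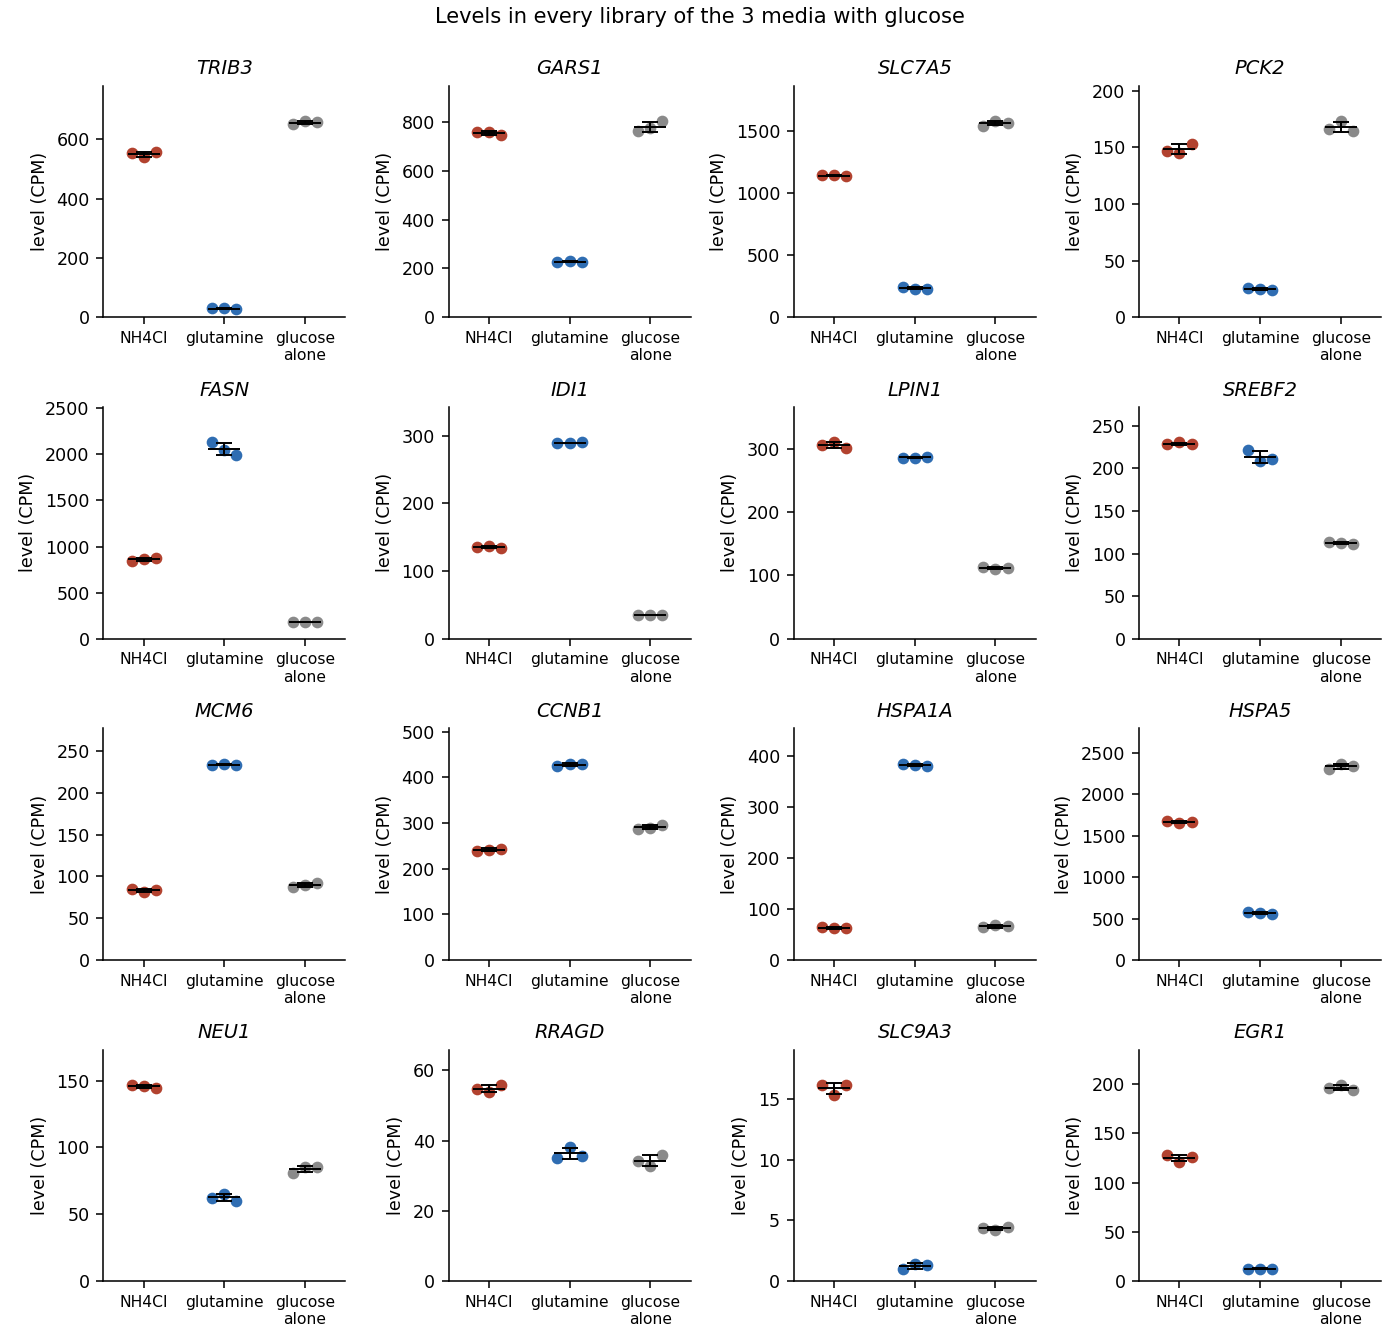
Each panel shows the level of a gene in CPM in the 3 libraries with NH4Cl (red), with glutamine (blue) and with glucose alone (grey), with mean and SD in black. TRIB3, GARS1, SLC7A5 and PCK2 with NH4Cl stood closer to glucose alone than to glutamine, LPIN1 and SREBF2 closer to glutamine, FASN and IDI1 in between, and NEU1, RRAGD and SLC9A3 above both.

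Genes of enzymes that handle glutamine or ammonia went in both directions, with log2 changes from -0.57 to 0.998. Against a 1.2-fold change 2 were called higher and 4 lower. Of 21 such genes that passed the filter, 5 were higher and 10 lower, beside 31.2% and 33.4% of all genes tested. Their median was -0.13 log2 units. GLUL, the gene of glutamine synthetase, had 67.0, 64.9 and 62.2 CPM with NH4Cl, against 59.8, 62.1 and 58.7 CPM with glutamine and 52.7 ± 0.881 CPM with glucose alone. The NH4Cl libraries of GLUL lay barely above those with glutamine, by 0.11 ± 0.04 log2 units (adjusted p = 0.0151 by edgeR's quasi-likelihood test), and were not called against a 1.2-fold change. The call of GLUL was also lost without NH4Cl replicate 1, where the log2 change was 0.08, and without glutamine replicate 3, where it was 0.08. GLUD1, whose enzyme joins ammonia to ketoglutarate or frees it from glutamate, was not called, at -0.02 ± 0.025 log2 units. CPS1, which takes up ammonia in the urea cycle, had at most 1.41 CPM with NH4Cl and 0.961 CPM with glutamine and was not called either, though without glutamine replicate 3 it was called higher at a log2 change of 0.90.

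The amidotransferases, which take nitrogen from the glutamine amide, were lower with NH4Cl in pyrimidine and purine synthesis. CAD, which starts pyrimidine synthesis, had 157, 155 and 159 CPM with NH4Cl, against 215, 209.6 and 199.8 CPM with glutamine. CTPS1, which makes CTP, had 82.6, 84.1 and 84.1 CPM with NH4Cl, against 124, 118 and 121 CPM with glutamine. Both were lower, at -0.41 ± 0.029 and -0.54 ± 0.033 log2 units, and so were PPAT (-0.33 ± 0.044), PFAS (-0.36 ± 0.032) and GMPS (-0.19 ± 0.026) of the purine route. CTPS2, the other CTP synthase gene, was not called, at -0.13 ± 0.099 log2 units. GFPT1, the amidotransferase of amino sugar synthesis, was higher at 0.62 ± 0.033 log2 units. Across 27 genes of purine and pyrimidine synthesis 21 were lower and 2 higher, with a median of -0.41 log2 units. TYMS, which makes thymidylate, was lower at -1.05 ± 0.031 log2 units. The 2 higher genes were GART and RRM2B, a ribonucleotide reductase subunit used outside S phase, at 0.40 ± 0.024 and 0.32 ± 0.032 log2 units.

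Genes of folate metabolism went both ways. Of 14 that passed the filter 5 were higher and 7 lower, beside 31.2% and 33.4% of all genes tested. The mitochondrial enzymes ALDH1L2 and MTHFD2 were higher, MTHFD2 with 572, 571 and 569 CPM with NH4Cl, against 143, 142 and 149 CPM with glutamine and 625 ± 3.10 CPM with glucose alone. The log2 changes were 2.41 ± 0.057 for ALDH1L2 and 1.98 ± 0.023 for MTHFD2. SLC19A1, the carrier that brings folate into cells, had 7.94, 7.65 and 7.47 CPM with NH4Cl, against 25.8, 22.4 and 23.2 CPM with glutamine. It was lower at -1.63 ± 0.083 log2 units, as was the cytosolic enzyme MTHFD1 (-0.58 ± 0.026).

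For genes of cholesterol synthesis, uptake and transport the median with NH4Cl lay between those of glucose alone and glutamine. Of 26 genes, 20 were lower with NH4Cl than with glutamine and 3 higher, with a median of -0.60 log2 units. Set against glucose alone, the list's median was 1.26 with NH4Cl and 2.06 log2 units with glutamine. NH4Cl stood with 23 members above and 1 below glucose alone. ACAT2, whose enzyme joins acetyl-CoA units in the cytosol at the head of the pathway, had 70.4, 72.7 and 75.2 CPM with NH4Cl, against 181, 182 and 175 CPM with glutamine and 38.1 ± 1.38 CPM with glucose alone. IDI1, for the isomerase of its isoprenoid units, had 136, 136 and 134 CPM with NH4Cl, against 289, 289 and 289.9 CPM with glutamine and 35.2 ± 0.284 CPM with glucose alone. Neither reached its level with glutamine, with log2 changes of -1.30 ± 0.031 and -1.10 ± 0.027. The 3 higher members were genes of cholesterol transport and not of its synthesis. NPC1 and NPC2, which move cholesterol out of lysosomes, were higher with NH4Cl by 0.90 ± 0.032 and 0.56 ± 0.034, and ABCA1, which moves it out of the cell, by 0.85 ± 0.062 log2 units. A sterol regulatory element, to which SREBP factors bind, was searched as TCACNCCAC on both strands in the same window. It lay in 0 of 20 promoters of the list in the table and in 1 of 25 of the fatty acid and glycerolipid list, against 1.15% of all promoters and 1.03% of those of genes tested. An element that departs from these letters or lies outside the window would not be found, so the absence of a match does not show that the element is absent.

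The control genes of the SREBP pathway went both ways. Of 12, 5 were higher and 5 lower, beside 31.2% and 33.4% of all genes tested, with a median of 0.03 log2 units. The counts are therefore not read as a result about the list. SREBF2, which encodes the SREBP factor of the sterol genes, had 229, 230.4 and 228 CPM with NH4Cl, against 222, 209 and 211 CPM with glutamine and 113 ± 1.16 CPM with glucose alone. It was higher than with glutamine by 0.10 ± 0.027, and LPIN1, a phosphatidate phosphatase gene, by 0.09 ± 0.025 log2 units, at 306, 310.1 and 301 CPM with NH4Cl, against 286, 286 and 288 CPM with glutamine. Neither was called against a 1.2-fold change. SREBF1, for the factor tied more to fatty acid genes, was lower at -0.26 ± 0.028 log2 units, with 304, 303 and 319 CPM with NH4Cl, against 392, 362 and 357 CPM with glutamine and 152 ± 7.47 CPM with glucose alone. INSIG1, whose protein retains SREBP in the endoplasmic reticulum, was lower at -0.41 ± 0.027 log2 units. RNF145, a ubiquitin ligase gene, had 64.0, 61.3 and 63.3 CPM with NH4Cl, against 132, 130.3 and 128 CPM with glutamine and 66.4 ± 1.37 CPM with glucose alone. For RNF145 the NH4Cl libraries stood at the level of glucose alone and far below glutamine, at -1.05 ± 0.035 log2 units.

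Of 29 genes of fatty acid and glycerolipid synthesis 19 were lower with NH4Cl and 6 higher, with a median of -0.26 log2 units. FASN, the fatty acid synthase gene, had 847, 862 and 873 CPM with NH4Cl, against 2129.5, 2052 and 1992 CPM with glutamine and 179 ± 3.03 CPM with glucose alone. ACLY, which makes cytosolic acetyl-CoA from citrate, had 209.6, 214 and 216 CPM with NH4Cl, against 454, 471 and 452 CPM with glutamine and 126 ± 5.59 CPM with glucose alone. SLC25A1, the carrier that exports that citrate from mitochondria, had 103, 109.6 and 110.4 CPM with NH4Cl, against 198, 186 and 189.9 CPM with glutamine. All of these were lower than with glutamine, at -1.26 ± 0.018 for FASN, -1.11 ± 0.025 for ACLY and -0.83 ± 0.03 log2 units for SLC25A1. ELOVL6, an elongase gene, stood almost at the level of glucose alone, with 42.9, 39.1 and 41.9 CPM with NH4Cl, against 78.7, 72.1 and 72.8 CPM with glutamine and 37.9 ± 1.5 CPM with glucose alone. MID1IP1, whose protein promotes polymers of acetyl-CoA carboxylase, was the gene with the largest rise in the list at 1.46 ± 0.049 log2 units, with 69.6, 64.3 and 68.3 CPM with NH4Cl, against 25.1, 24.0 and 24.2 CPM with glutamine.

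**Figure D3:**
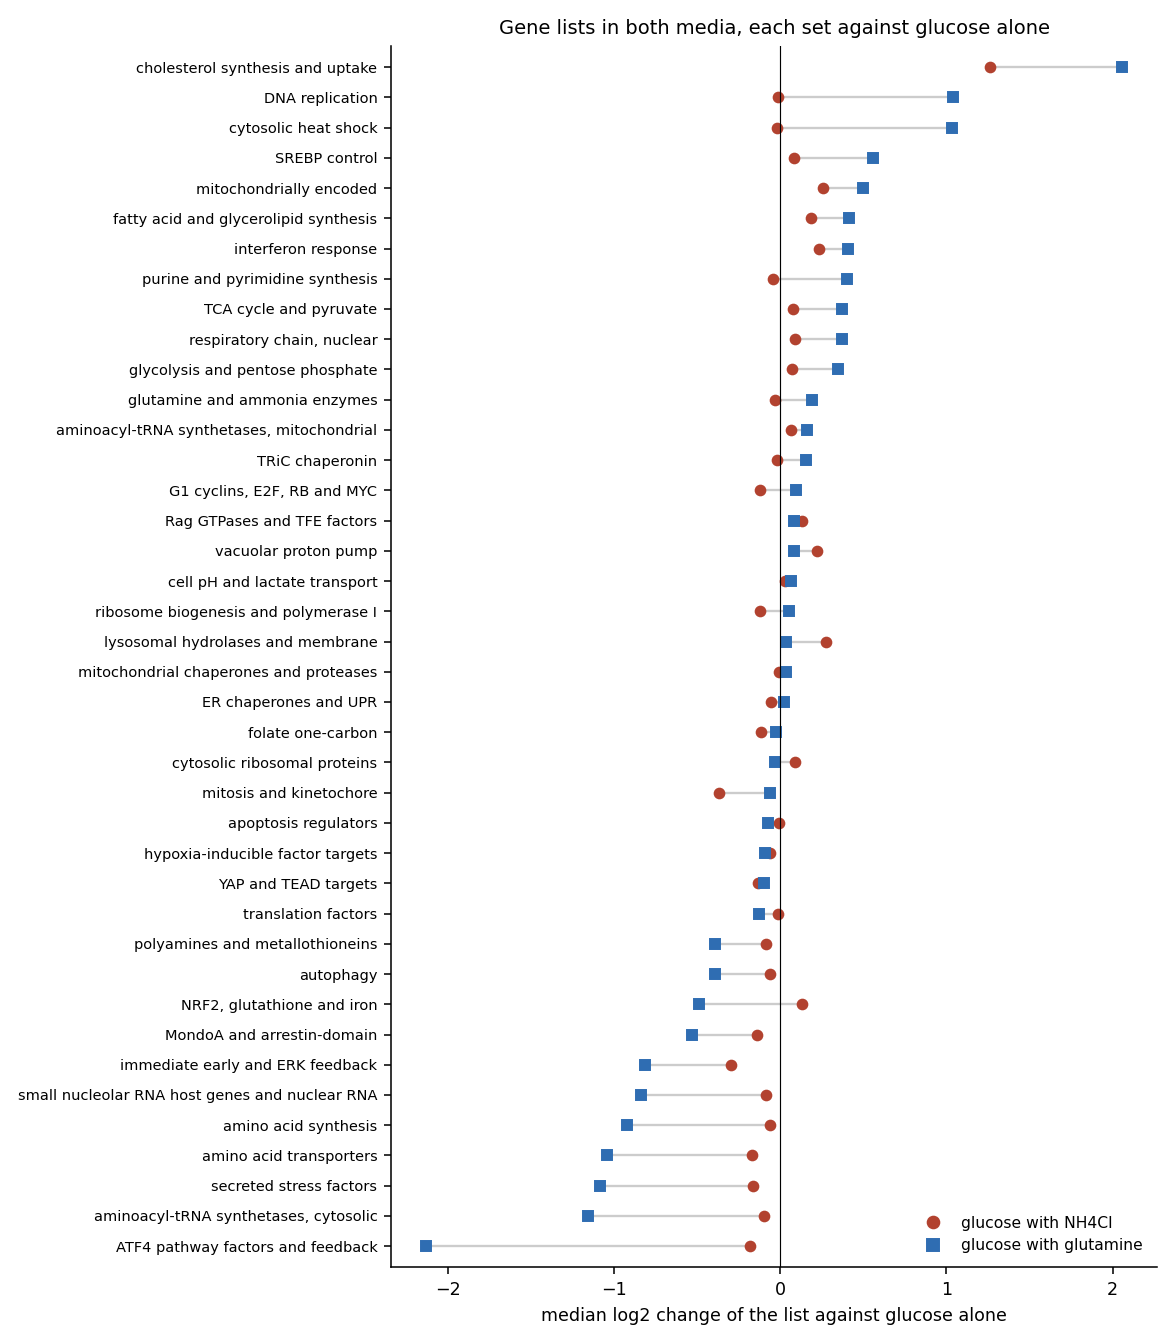
Each line shows the median log2 change of a gene list against glucose alone, with NH4Cl (red circles) and with glutamine (blue squares). Both medians of a list share the same glucose-alone libraries as their reference. Cholesterol genes stood at 1.26 with NH4Cl and 2.06 with glutamine, and DNA replication genes at -0.01 and 1.04 log2 units.

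Genes of DNA replication stood far lower with NH4Cl than with glutamine, and close to glucose alone. Of 33, 32 were lower with NH4Cl than with glutamine and 17 at least 2-fold lower, with a median of -1.02 log2 units. Against glucose alone NH4Cl stood with 5 members above and 7 below, beside 12.7% and 16.9% of all genes tested. The list's median against glucose alone was -0.01 log2 units. MCM6, a subunit of the replicative helicase, had 85.2, 81.6 and 83.8 CPM with NH4Cl, against 233, 235 and 234 CPM with glutamine and 89.8 ± 2.12 CPM with glucose alone. GINS2, part of the complex that activates that helicase, had 19.8, 19.6 and 22.5 CPM with NH4Cl, against 70.0, 70.4 and 68.2 CPM with glutamine. PCNA, the sliding clamp of the polymerases, had 80.8, 80.7 and 76.7 CPM with NH4Cl, against 197, 199 and 187 CPM with glutamine. In bulk RNA, fewer cells in S phase and less RNA per cell cannot be told apart. In each of these genes the groups were well apart, at -1.49 ± 0.03, -1.75 ± 0.054 and -1.29 ± 0.031 log2 units. FEN1, which trims the ends of Okazaki fragments, was lower at -1.55 ± 0.046 log2 units. The exception was RFC1, the large subunit of the clamp loader, which was higher by 0.07 ± 0.025 log2 units. Its call was lost without NH4Cl replicate 1 and without NH4Cl replicate 2, at log2 changes of 0.06 and 0.06.

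E2F factors control many of these genes. An E2F site was searched as TTTGGCGC or TTTCCCGC on both strands in the same window. It lay in 15 of the 29 replication promoters in the table, against 2.31% of all promoters and 3.68% of those of genes tested. The promoters of the replication genes with the largest falls among those that held it are shown up to the start, GINS2 (chr16:85688955-85689204, minus strand) and MCM6 (chr2:135876444-135876693, minus strand), with the sites in capitals.
GINS2: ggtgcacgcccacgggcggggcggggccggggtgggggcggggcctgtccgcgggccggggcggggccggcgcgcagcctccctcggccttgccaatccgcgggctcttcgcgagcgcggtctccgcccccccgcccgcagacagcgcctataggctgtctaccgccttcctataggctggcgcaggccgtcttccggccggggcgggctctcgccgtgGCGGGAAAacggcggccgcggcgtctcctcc
MCM6: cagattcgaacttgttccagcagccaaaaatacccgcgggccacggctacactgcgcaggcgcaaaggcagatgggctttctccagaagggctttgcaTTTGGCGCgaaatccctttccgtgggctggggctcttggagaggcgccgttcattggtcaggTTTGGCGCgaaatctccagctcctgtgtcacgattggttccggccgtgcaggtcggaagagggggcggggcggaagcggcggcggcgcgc

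Among 29 regulators of the G1 phase 12 were higher and 14 lower with NH4Cl, with a median of -0.04 log2 units. Over all genes tested the shares were 31.2% and 33.4%, and the counts are not read as a result about the list. E2F1 and CDC25A, which promote entry into S phase, were lower at -1.06 ± 0.047 and -1.21 ± 0.059 log2 units. CDC25A had 18.3, 16.8 and 19.4 CPM with NH4Cl, against 40.7, 43.3 and 42.0 CPM with glutamine and 23.6 ± 1.17 CPM with glucose alone, so that it also lay below glucose alone. MXD1, whose protein competes with MYC for the partner MAX, was higher by 1.73 ± 0.062, and MYC by 0.30 ± 0.025 log2 units. CDKN1B, which encodes the kinase inhibitor p27, was higher by 0.85 ± 0.032 log2 units. Of 30 mitosis and kinetochore genes 25 were lower with NH4Cl and 1 higher, with a median of -0.26 log2 units. CCNB1, the cyclin that drives entry into mitosis, had 238, 241 and 244 CPM with NH4Cl, against 424, 429 and 428 CPM with glutamine and 291 ± 5.09 CPM with glucose alone. CDC20, an activator of the anaphase-promoting complex, had 186, 191 and 192 CPM with NH4Cl, against 319, 303 and 312 CPM with glutamine and 249.4 ± 2.05 CPM with glucose alone. For both the NH4Cl libraries were the lowest of the 3 media. The list's median against glucose alone was -0.37 with NH4Cl and -0.06 log2 units with glutamine, and NH4Cl stood with 0 members above and 28 below glucose alone. CENPA, the histone of the centromere, was higher than with glutamine by 0.28 ± 0.042 log2 units and yet below its 85.4 ± 0.505 CPM with glucose alone, at 61.2, 63.2 and 62.8 CPM with NH4Cl.

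Cytosolic chaperones too were lower than with glutamine and close to glucose alone. Of 25 heat shock genes 21 were lower with NH4Cl than with glutamine and 11 at least 2-fold lower, with a median of -0.87 log2 units. Against glucose alone NH4Cl stood with 6 members above and 6 below, beside 12.7% and 16.9% of all genes tested. The list's median against glucose alone was -0.02 log2 units. HSPA1A, an inducible HSP70 gene, had 64.5, 61.6 and 62.0 CPM with NH4Cl, against 384, 381 and 379 CPM with glutamine and 66.2 ± 2.69 CPM with glucose alone. HSPA1B, its near-identical neighbour, had 61.5, 61.9 and 62.6 CPM with NH4Cl, against 354, 340.1 and 341 CPM with glutamine. They were the largest falls among called genes of at least 5 CPM without overlap, at -2.60 ± 0.02 and -2.48 ± 0.019 log2 units, but reads of either copy may have been counted for the other. HSP90AA1, the stress-inducible HSP90 gene, had 1985, 1959.5 and 1964 CPM with NH4Cl, against 6313, 6290.3 and 6214 CPM with glutamine and 2051 ± 17.4 CPM with glucose alone. DNAJA1, a partner of HSP70, had 109.9, 111 and 111 CPM with NH4Cl, against 334, 339 and 329 CPM with glutamine, and HSPB1, a small heat shock protein, was lower at -1.44 ± 0.025 log2 units. HSPB1 with NH4Cl still stood above glucose alone, by 0.57 log2 units. HSF1, the factor that drives these genes, was lower at -0.11 ± 0.028 log2 units, a change not called against 1.2-fold. A heat shock element, searched as GAANNTTC, lay in 7 of 22 promoters of the list, in 6.87% of all and in 4.75% of those of genes tested. That of HSPA1A (chr6:31815293-31815542, plus strand) reads as follows, with the element in capitals.
HSPA1A: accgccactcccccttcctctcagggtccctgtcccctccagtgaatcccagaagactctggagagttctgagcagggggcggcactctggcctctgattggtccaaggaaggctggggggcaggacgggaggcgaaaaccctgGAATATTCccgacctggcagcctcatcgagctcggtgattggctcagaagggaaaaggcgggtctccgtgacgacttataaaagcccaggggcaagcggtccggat

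Both other lists of cytosolic and mitochondrial folding genes had members on either side. Of 14 genes of the TRiC chaperonin and prefoldin 11 were lower and 2 higher, with a median of -0.19 log2 units, such as CCT5 (-0.73 ± 0.021). Of 16 mitochondrial chaperone and protease genes 9 were lower and 5 higher, beside 33.4% and 31.2% of all genes tested. The median of that list was -0.09 log2 units. There HSPE1, the mitochondrial co-chaperonin, which the heat shock list also holds, was lower at -1.52 ± 0.047 log2 units, while HSPA9, the mitochondrial HSP70, had 1086, 1085 and 1094 CPM with NH4Cl, against 495, 500.2 and 496 CPM with glutamine. LONP1, a mitochondrial protease gene, was higher like HSPA9, by 1.00 ± 0.03 against 1.13 ± 0.018 log2 units.

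Genes of protein folding in the endoplasmic reticulum went both ways. Of 29, 13 were higher and 12 lower with NH4Cl, 6 and 4 of them at least 2-fold. The shares of all genes tested were 31.2% and 33.4%, and 4.94% and 4.51% at least 2-fold. HSPA5, which encodes the lumenal HSP70 BiP, had 1676, 1657 and 1668 CPM with NH4Cl, against 581, 572 and 550.1 CPM with glutamine and 2337 ± 31.4 CPM with glucose alone. CALR, the calcium-binding chaperone calreticulin, had 224, 226 and 234 CPM with NH4Cl, against 546, 554 and 532 CPM with glutamine and 219.8 ± 3.01 CPM with glucose alone. So BiP was higher by 1.55 ± 0.016 and calreticulin lower at -1.25 ± 0.02 log2 units, each without overlap. XBP1, whose spliced form drives chaperone genes, was higher by 1.15 ± 0.042 log2 units. The stress sensor genes ERN1 and ATF6 and the degradation gene HERPUD1 were higher, by 1.77 ± 0.056, 1.17 ± 0.039 and 1.40 ± 0.044 log2 units. MANF, SDF2L1 and CRELD2, genes for secreted or lumenal proteins that are known to rise with BiP in stress of the endoplasmic reticulum, were lower at -1.17 ± 0.054, -1.08 ± 0.069 and -1.04 ± 0.07 log2 units.

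**Figure D4:**
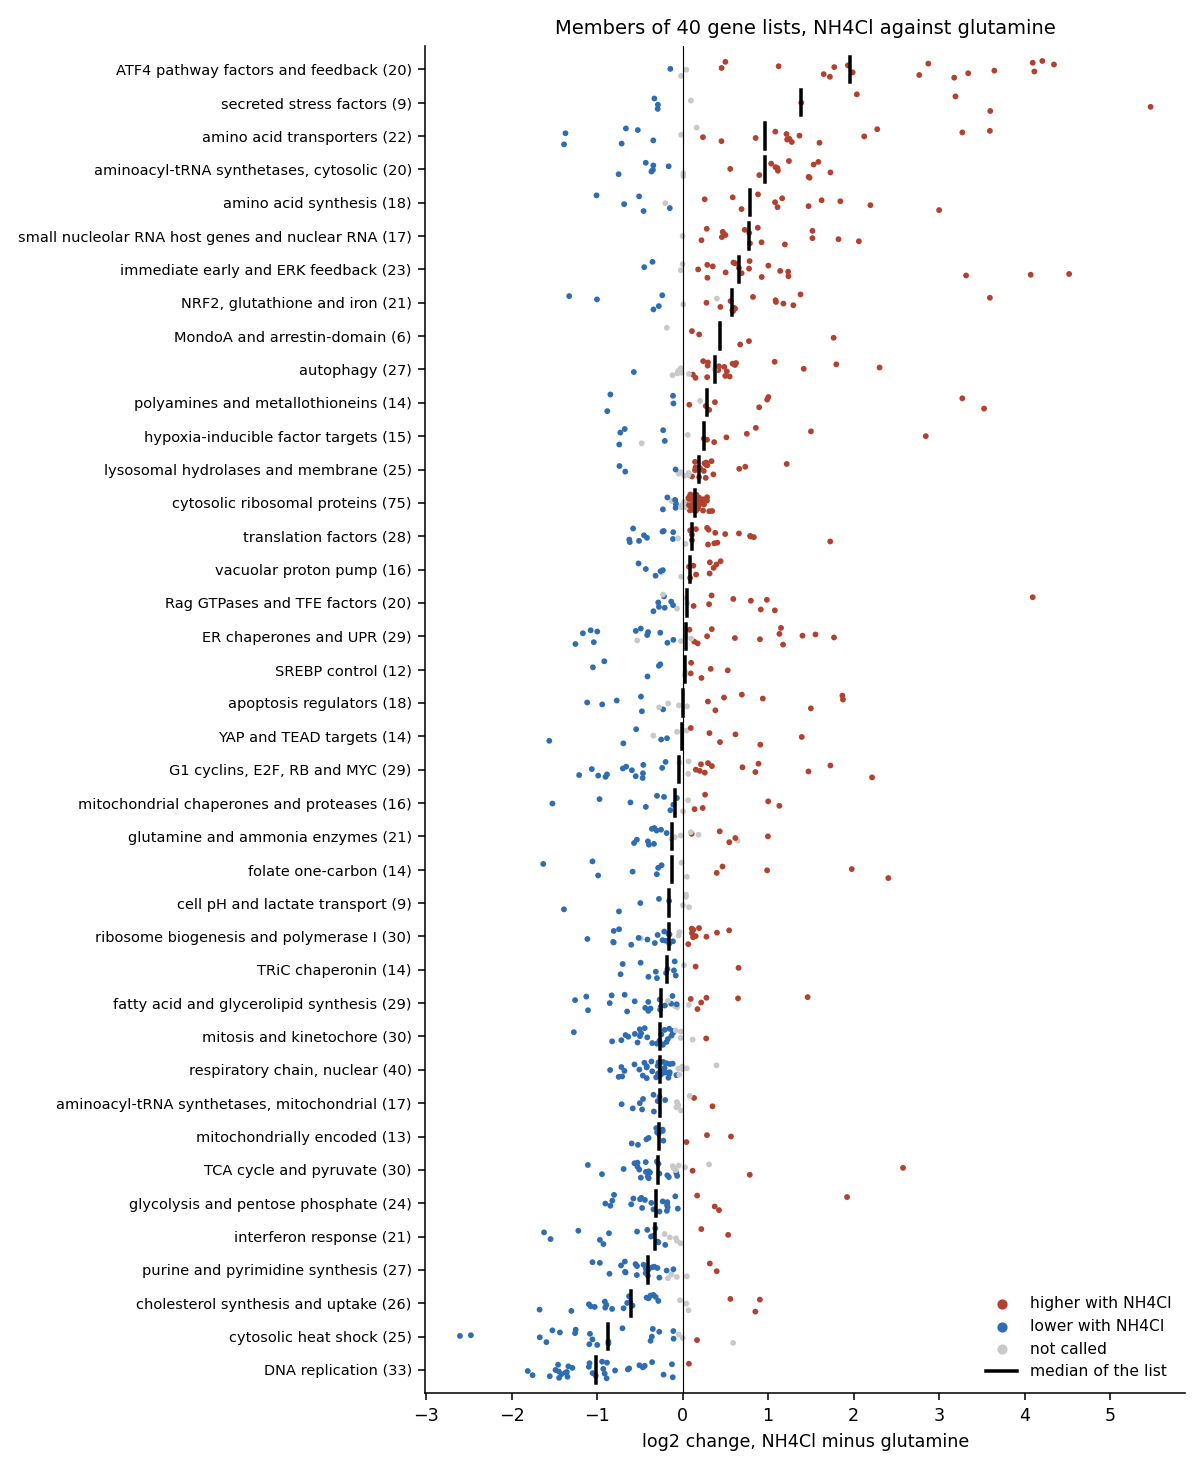
Each row is a gene list, with the number of members tested in brackets, and each point the log2 change of a member, NH4Cl minus glutamine. Red members were called higher, blue lower and grey not called, and the black bar is the median, which ran from -1.02 for DNA replication to 1.96 log2 units for the ATF4 list.

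Genes of the translation machinery differed in direction and size. Of 28 translation factors 16 were higher and 10 lower, with a median of 0.11 log2 units. For all genes tested the shares were 31.2% higher and 33.4% lower. EIF1, which guards start codon choice, had 856, 845 and 858 CPM with NH4Cl, against 253, 266 and 254 CPM with glutamine and 856 ± 17.3 CPM with glucose alone. It was higher by 1.73 ± 0.021, and the eIF2 subunit genes EIF2S2 and EIF2S3 by 0.83 ± 0.021 and 0.80 ± 0.023 log2 units. EIF2B3, part of the exchange factor that recharges eIF2, was lower at -0.62 ± 0.056 log2 units. Of 75 cytosolic ribosomal protein genes 63 were higher and 6 lower, but by little, with a median of 0.14 log2 units and 2 called higher against a 1.2-fold change. Against glucose alone the ribosomal protein list stood with 63 members above and 0 below with NH4Cl. Many of these genes have processed pseudogenes that can share their reads. Of 30 genes of ribosome assembly 10 were higher and 17 lower, or 2 and 9 against a 1.2-fold change, with NOP16 at -1.11 ± 0.066 log2 units. Host genes of small nucleolar RNAs and nuclear RNAs were higher in 16 of 17 cases, 5 of them at least 2-fold, with a median of 0.78 log2 units. SNHG1 had 271, 260.1 and 263 CPM with NH4Cl, against 74.7, 75.2 and 74.5 CPM with glutamine and 343 ± 0.566 CPM with glucose alone. GAS5, another host gene, was higher by 0.79 ± 0.026 and the nuclear RNA NEAT1 by 2.06 ± 0.022 log2 units.

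Nuclear genes of the respiratory chain were lower together, though by little. Of 40, 34 were lower with NH4Cl and 0 higher, with a median of -0.27 log2 units, by edgeR's quasi-likelihood test. At an unadjusted p under 0.05 the count of higher genes was also 0. The Wald test of DESeq2 called 1 higher. Against a 1.2-fold change 14 of the 40 were called lower. ATP5MC1, a subunit of the rotor of ATP synthase, was lower at -0.75 ± 0.035 and NDUFB10, of complex I, at -0.85 ± 0.04 log2 units. Of 30 genes of the citric acid cycle and pyruvate use 21 were lower and 3 higher, with a median of -0.29 log2 units. OGDH, whose enzyme takes glutamine carbon through ketoglutarate, had 121, 124 and 126 CPM with NH4Cl, against 198, 198 and 202 CPM with glutamine and 120.3 ± 2.97 CPM with glucose alone. It was lower at -0.69 ± 0.029 and IDH2 at -0.94 ± 0.082 log2 units. PCK2, which turns mitochondrial oxaloacetate into phosphoenolpyruvate and is an ATF4 target, was higher by 2.58 ± 0.039 log2 units, with 147, 146 and 153 CPM with NH4Cl, against 25.5, 25.2 and 24.0 CPM with glutamine. IDH1, the cytosolic isocitrate dehydrogenase, had 209, 209 and 205 CPM with NH4Cl, against 124, 119.8 and 117 CPM with glutamine and 161 ± 1.07 CPM with glucose alone, so that NH4Cl exceeded both other media. Of 24 glycolysis and pentose phosphate genes 20 were lower and 4 higher, with a median of -0.31 log2 units. LDHA, for lactate dehydrogenase, was lower at -0.84 ± 0.021 log2 units. SLC2A3, a glucose transporter gene, had 158, 156 and 163 CPM with NH4Cl, against 41.0, 41.9 and 42.9 CPM with glutamine and 126 ± 1.2 CPM with glucose alone, the highest of the 3 media with NH4Cl and a log2 change of 1.92 ± 0.035.

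Along the heavy strand of the mitochondrial chromosome, changes declined from the ribosomal RNAs to MT-ATP8. MT-RNR1, the small ribosomal RNA next to the promoter, had 400.4, 400.0 and 397 CPM with NH4Cl, against 135, 141 and 139 CPM with glutamine and 309 ± 34.7 CPM with glucose alone. MT-RNR2, the large ribosomal RNA behind it, had 2217, 2202 and 2192 CPM with NH4Cl, against 938, 968 and 968 CPM with glutamine and 1781 ± 46.5 CPM with glucose alone. Both were higher with NH4Cl, by 1.53 ± 0.068 and 1.2 ± 0.016 log2 units. Behind them MT-ND1 was higher by 0.57 ± 0.021, MT-ND2 by 0.28 ± 0.021 and MT-CO1 by 0.04 ± 0.019 log2 units. From MT-CO2 (-0.23 ± 0.021 log2 units) onward every protein gene was lower, among them MT-ATP8 (-0.60 ± 0.043) and MT-CYB (-0.40 ± 0.022). MT-ND6, read from the light strand, was lower at -0.31 ± 0.028 log2 units. In all, 10 of the 13 protein genes were lower and 3 higher. The call of MT-CO1, the smallest of these changes, was lost without any 1 of 5 of the 6 libraries, at log2 changes of 0.04 to 0.05. Nuclear copies of mitochondrial sequence can share these reads, and the sources used here do not say how multiply mapped reads were counted. The chromosome's share of all counts was 1.07%, 1.06% and 1.05% with NH4Cl, against 0.938%, 0.954% and 0.967% with glutamine and 0.849%, 0.852% and 0.867% with glucose alone. Groups did not overlap, but an exact two-sided permutation test of 3 against 3 cannot go below its p of 0.1. Both ribosomal RNAs together had 2603 ± 14.1 CPM with NH4Cl, against 1096 ± 20.5 CPM with glutamine and 2089.5 ± 77.3 CPM with glucose alone. The other mitochondrial genes had 7195 ± 59.4 CPM with NH4Cl, against 7750.4 ± 76.9 CPM with glutamine and 5900.0 ± 125 CPM with glucose alone (SD, n = 3 each). The order along the strand was noticed after the values were seen.

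**Figure D5:**
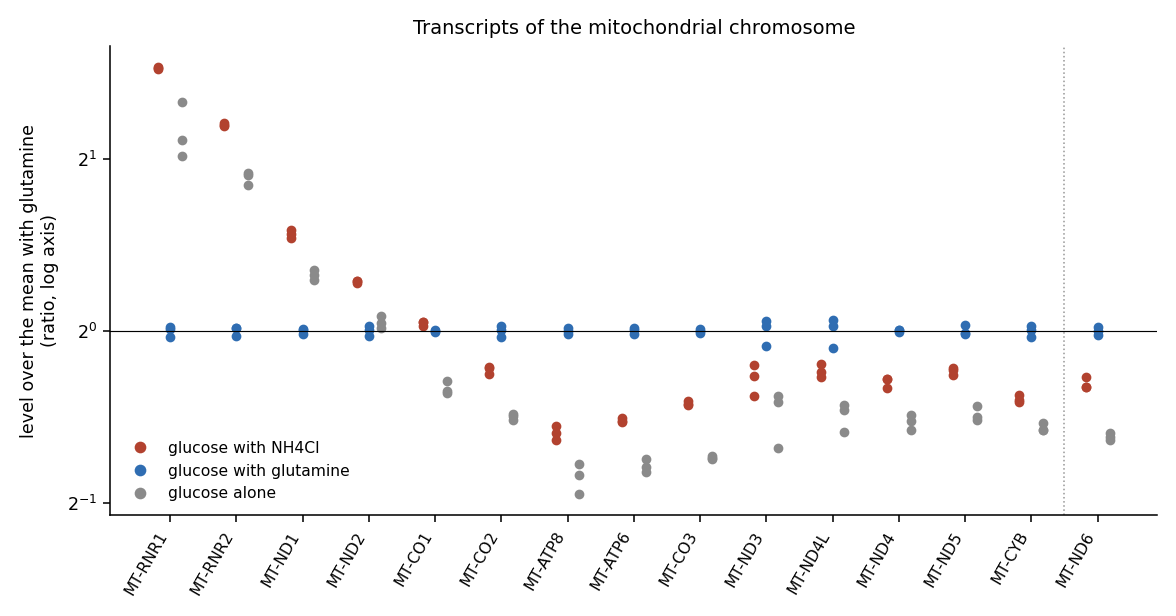
Levels of 15 mitochondrial transcripts in each library, divided by the mean with glutamine (ratio, log axis), with NH4Cl in red, glutamine in blue and glucose alone in grey. Genes run in order along the heavy strand up to MT-CYB, and MT-ND6 right of the dotted line is read from the light strand. Ratios with NH4Cl decline from MT-RNR1 to MT-ATP8.

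Lysosomal genes and the Rag pathway, which senses nutrients on the lysosome, held members that were higher with NH4Cl than in either other medium. Of 25 lysosomal hydrolase and membrane genes 17 were higher than with glutamine and 3 lower, with a median of 0.19 log2 units. Against a 1.2-fold change 5 of the 25 were called higher. Against glucose alone the list stood with 24 members above and 0 below with NH4Cl. NEU1, the lysosomal sialidase gene, had 147, 146 and 144 CPM with NH4Cl, against 62.4, 65.5 and 60.3 CPM with glutamine and 83.8 ± 2.46 CPM with glucose alone. It was higher than with glutamine by 1.22 ± 0.033 and than with glucose alone by 0.80 log2 units. LAMP2, a membrane protein of the lysosome, had 122, 124 and 118 CPM with NH4Cl, against 76.0, 71.9 and 71.1 CPM with glutamine and 102 ± 0.787 CPM with glucose alone. LIPA and GLA, an acid lipase and a galactosidase, were lower at -0.74 ± 0.047 and -0.67 ± 0.061 log2 units, and both stood above glucose alone. Of 16 genes of the vacuolar proton pump 9 were higher and 5 lower, beside 31.2% and 33.4% of all genes tested. The median was 0.08 log2 units. Against a 1.2-fold change 4 genes of the pump were called higher and 2 lower. ATP6V1H, a subunit of its cytosolic part, was higher by 0.44 ± 0.034, and ATP6V1A, the catalytic one, lower at -0.43 ± 0.034 log2 units. An E-box, searched as CACGTG, lay in 7 of 15 promoters of the lysosomal list in the table, in 7.43% of all and in 10.2% of those of genes tested. The factors TFEB and TFE3 bind sites that contain it, and that of NEU1 (chr6:31862822-31863071, minus strand) is shown in capitals.
NEU1: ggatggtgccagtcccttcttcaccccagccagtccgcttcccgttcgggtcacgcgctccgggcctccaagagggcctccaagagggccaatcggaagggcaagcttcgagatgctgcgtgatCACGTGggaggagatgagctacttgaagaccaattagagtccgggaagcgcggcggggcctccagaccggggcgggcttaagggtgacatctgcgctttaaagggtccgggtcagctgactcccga

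Of 20 genes around the Rag GTPases that passed the filter 9 were higher with NH4Cl than with glutamine and 7 lower. The shares of all genes tested were 31.2% and 33.4%, and the list's median was 0.05 log2 units. The lower changes were small: against a 1.2-fold change 7 were called higher and 0 lower by edgeR, though 7 were lower at an unadjusted p under 0.05 and 4 by the Wald test of DESeq2. FLCN, whose protein folliculin acts on Rag C and D, had 51.6, 55.8 and 54.9 CPM with NH4Cl, against 24.5, 25.2 and 27.1 CPM with glutamine and 38.6 ± 0.396 CPM with glucose alone. RRAGD, the gene of Rag D, had 54.6, 54.0 and 55.8 CPM with NH4Cl, against 35.2, 38.1 and 35.8 CPM with glutamine and 34.3 ± 1.47 CPM with glucose alone. With NH4Cl both were the highest of the 3 media, by 1.08 ± 0.051 and 0.59 ± 0.047 over glutamine and by 0.49 and 0.67 log2 units over glucose alone. RRAGC and the FLCN partner gene FNIP1 were higher than with glutamine by 0.99 ± 0.062 and 0.91 ± 0.043 log2 units. TFE3 was higher than with glutamine by 0.34 ± 0.034 log2 units and below glucose alone. TFEB stood at or below 1.61 CPM in all 6 libraries and was not called. Of 27 autophagy genes 19 were higher and 1 lower, with a median of 0.38 log2 units. MAP1LC3B, which coats autophagosomes, had 732, 712 and 716 CPM with NH4Cl, against 143, 148 and 146 CPM with glutamine and 846 ± 22.5 CPM with glucose alone. SQSTM1, a receptor for their cargo, had 1426, 1431 and 1458 CPM with NH4Cl, against 415, 417 and 409 CPM with glutamine and 1192 ± 17.3 CPM with glucose alone. Both were higher than with glutamine, by 2.30 ± 0.023 and 1.8 ± 0.018 log2 units. GABARAPL1, a relative of MAP1LC3B, had 192, 197 and 199 CPM with NH4Cl, against 71.0, 73.1 and 76.3 CPM with glutamine. WIPI1, which acts where autophagosomes form, was higher by 1.08 ± 0.066, and the exception was ATG7 at -0.57 ± 0.052 log2 units.

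SLC9A3 encodes a sodium-proton exchanger of the cell surface and had 16.1, 15.3 and 16.1 CPM with NH4Cl, against 1.01, 1.43 and 1.33 CPM with glutamine and 4.35 ± 0.136 CPM with glucose alone. It was higher with NH4Cl than with glutamine by 3.65 ± 0.15 and than with glucose alone by 1.86 log2 units. The glutamine values of SLC9A3 rest on 18 to 25 counts in a library. SLC9A3-AS1, which overlaps it on the other strand, had 64.0, 68.1 and 64.6 CPM with NH4Cl, against 5.19, 4.83 and 4.43 CPM with glutamine and 19.7 ± 0.774 CPM with glucose alone. Whether the counting used strand is not stated in the sources used here, so reads of the pair cannot be told apart. A separate list of cell pH and lactate transport does not hold SLC9A3. Of its 9 genes that passed the filter among 14 listed, 0 were higher and 5 lower by edgeR's quasi-likelihood test, with 0 higher at an unadjusted p under 0.05. The Wald test of DESeq2 also called 0 higher. They included the carbonic anhydrase gene CA2 (-1.39 ± 0.1 log2 units) and the lactate exporter gene SLC16A3 (-0.49 ± 0.028).

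Immediate early genes and feedback genes of the ERK kinases were higher with NH4Cl in 19 of 23 cases and lower in 2, with 7 at least 2-fold higher and a median of 0.66 log2 units. EGR1, an early transcription factor gene, had 128, 121 and 126 CPM with NH4Cl, against 12.7, 12.0 and 12.9 CPM with glutamine and 196 ± 2.69 CPM with glucose alone. DUSP6, an ERK phosphatase gene, had 139, 138 and 141 CPM with NH4Cl, against 59.7, 58.8 and 59.3 CPM with glutamine and 172 ± 2.23 CPM with glucose alone. Each lay between the other media, 3.32 ± 0.043 and 1.24 ± 0.034 above glutamine and -0.65 and -0.30 log2 units against glucose alone. Of 21 genes of the NRF2 response, glutathione and iron 14 were higher and 5 lower, with a median of 0.58 log2 units. TXNRD1, a thioredoxin reductase gene, was higher by 1.38 ± 0.017, and HMOX1, for heme oxygenase, by 1.29 ± 0.042 log2 units, at 60.5, 57.7 and 59.5 CPM with NH4Cl, against 23.5, 25.5 and 23.4 CPM with glutamine and 49.5 ± 1.75 CPM with glucose alone. TFRC, the transferrin receptor gene, had 168, 167 and 163 CPM with NH4Cl, against 414, 431 and 407 CPM with glutamine and 105 ± 3.65 CPM with glucose alone, and its log2 change was -1.33 ± 0.025. In the group of MondoA and the arrestin-domain genes 5 of 6 were higher and 0 lower by edgeR's quasi-likelihood test, at an unadjusted p under 0.05 and by the Wald test of DESeq2 alike, with ARRDC4 at 2.95, 4.78 and 3.18 CPM with NH4Cl, against 1.07, 0.775 and 1.33 CPM with glutamine. With glucose alone ARRDC4 had 8.91 ± 0.563 CPM, above both.

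Among 9 genes of secreted stress factors that passed the filter, of 14 listed, 5 were higher and 3 lower. Of all genes tested 31.2% were higher and 33.4% lower. Against a 1.2-fold change edgeR called 5 higher and 0 lower, while 3 were lower at an unadjusted p under 0.05 and 3 by the Wald test of DESeq2. STC2, for stanniocalcin, had 140.3, 142 and 140.1 CPM with NH4Cl, against 14.5, 17.6 and 14.3 CPM with glutamine and 192 ± 1.8 CPM with glucose alone. GDF15, a stress cytokine gene, had 48.3, 51.3 and 51.5 CPM with NH4Cl, against 1.01, 1.43 and 0.961 CPM with glutamine and 37.7 ± 1.52 CPM with glucose alone. It was the largest rise of all named genes at 5.47 ± 0.1, and 5.36 log2 units without glutamine replicate 3. VEGFA, for the endothelial growth factor, was higher by 2.04 ± 0.048 and ADM2, for a peptide hormone, by 3.60 ± 0.08 log2 units.

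Across all genes, the naming rule took 15 rises and 15 falls, those of largest size among called genes of at least 5 CPM without overlap between the libraries of both media, and 67.5% of all genes tested had no overlap. Of the rises outside the lists, LURAP1L had 26.6, 28.8 and 26.2 CPM with NH4Cl, against 1.64, 1.85 and 1.33 CPM with glutamine and 27.7 ± 0.326 CPM with glucose alone, a log2 change of 4.08 ± 0.11. ULBP1, a ligand that marks stressed cells for natural killer cells, had 43.2, 39.1 and 39.6 CPM with NH4Cl, against 3.33, 4.23 and 4.32 CPM with glutamine and 42.8 ± 0.345 CPM with glucose alone. Both lay near glucose alone and far above glutamine. The falls outside the lists included PRSS23, a secreted protease gene, at -2.46 ± 0.046 log2 units, and FAM111B, another protease gene, with 12.1, 11.2 and 11.5 CPM with NH4Cl, against 53.7, 57.2 and 51.4 CPM with glutamine and 10.6 ± 0.846 CPM with glucose alone. THBS1, for the matrix protein thrombospondin, had 11.6, 11.9 and 9.59 CPM with NH4Cl, against 48.2, 49.0 and 46.4 CPM with glutamine and 13.9 ± 1.39 CPM with glucose alone, and COL13A1, a membrane collagen gene, was lower at -2.08 ± 0.093 log2 units. For FAM111B and THBS1 all NH4Cl libraries stood far below those with glutamine. G0S2, whose protein inhibits the lipase of fat droplets, had 51.2, 55.1 and 52.1 CPM with NH4Cl, against 201, 209 and 209.7 CPM with glutamine and 81.4 ± 1.26 CPM with glucose alone, so that NH4Cl was the lowest of the 3 media, -1.97 ± 0.033 against glutamine and -0.62 log2 units against glucose alone. The other falls were WNT16 (-2.17 ± 0.15 log2 units), HSPA2 (-2.07 ± 0.087), TP73 (-2.02 ± 0.14), SLCO4A1 (-1.91 ± 0.1), B4GALNT4 (-1.91 ± 0.13), SYT11 (-1.90 ± 0.13) and BEND3 (-1.89 ± 0.1).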

How the data were processed

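Poly(A) RNA of H1299 cells was sequenced, and the authors deposited whole-number counts per gene, which are not normalized. Per the submitters' processing notes the tools were HISAT2 2.1.0 and featureCounts of Subread 1.5.1, with the genome build GRCh38.p12. How strand and multiply mapped reads were treated is not stated in the sources used here. Of 58395 gene IDs 58275 took a name from GENCODE 29.

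The counts of all 15 libraries, 3 for each of 5 media, were fitted with edgeR 4.0.16 in R 4.3.3 (limma 3.58.1), so that the media shared an estimate of the spread with 10 residual degrees of freedom. Genes were kept by filterByExpr, scaled by TMM and compared by the quasi-likelihood test, with Benjamini-Hochberg adjustment over all genes tested. A second test asked for a change beyond 1.2-fold. The analysis was tested on simulated data in which few genes were changed. That setting is unlike these data, so it does not test the scaling or the calls made here. Libraries of a medium differed by more than sampling noise, with a chi-square per degree of freedom of 1.24 to 1.49 in the media compared, and each counts as a replicate. Floors are 3 counts per library. The smallest p of an exact permutation test of 3 against 3 is 0.1.

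Of 911 symbols in 40 gene lists 910 matched an ID and 879 passed the filter. The comparison and the lists were chosen with earlier results of these data known. Genes were named by a rule: the 15 largest rises and the 15 largest falls of at least 5 CPM without overlap, and in each list up to 4 called members in the main direction, up to 2 in the other and up to 2 not called, with 4 lists open in full. Not all are printed, and some are not reported here. Of 202 genes named, 36 fall outside the rule and were chosen after their values were seen. These include ATF4, PPP1R15A, PCNA, MYC and the mitochondrial transcripts. Promoter sequences are from RefSeq (GRCh38.p14), matched by symbol. Alternatives changed the scaling, the filter, the test (DESeq2 1.42.0), the libraries in the fit and a block on the replicate number.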

Additional observations from a re-analysis of the deposited data

How the results depend on the processing

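Of 10918 genes called, the count was 10907 with DESeq2 size factors, 10910 with library totals alone, 10144 without the low-count filter, 10693 with at least 1 CPM in 3 libraries and 10046 with the Wald test of DESeq2. It was 10793 in the fit of the 6 libraries compared and 10948 in 12 libraries without the medium with neither nutrient. Leaving out each of the 6 libraries in turn gave 10322 to 10441. Over these settings 718 to 922 genes were at least 2-fold higher and 645 to 867 at least 2-fold lower. Without the 3 libraries that hold many low-count genes, an alternative chosen after seeing the data, the count was 10449. The scalings moved the median log2 change of all genes by at most 0.022. Among the 202 genes named none changed sign under the alternatives run, and 19 of the 196 called lost their call under at least 1 of them. Tested against a 1.2-fold change, the counts were 6416 in all, 3045 higher and 3371 lower. Counts of members called lower against that change were 4 for folate metabolism, 5 for mitochondrial synthetases, 4 for glutamine and ammonia enzymes, 12 for fatty acid synthesis, 13 for mitosis and 6 for TRiC and prefoldin. They were 9 for ribosome assembly, 14 for the nuclear respiratory chain, 6 for mitochondrially encoded genes, 4 for mitochondrial chaperones, 12 for glycolysis, 9 for the interferon response, 2 for cell pH, and 0 each for Rag GTPases and TFE factors and for secreted stress factors. Counts called higher against it were 1 for SREBP control, 8 for the endoplasmic reticulum, 5 for lysosomal genes, 4 for the proton pump, 3 for MondoA and arrestin-domain genes 2 for ribosome assembly and 2 for ribosomal proteins. In each of these lists the fall in the count follows from the stricter test.

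Replicate numbers are shared between both media. Residuals of libraries with the same number correlated at -0.007, 0.032 and -0.019, so no pairing by number was seen. The labels do not say whether equal numbers share a culture or day. Such small correlations cannot decide it, because libraries of a medium differed so little. A fit with the replicate number as a block called 10899 genes, against 10918 without it, and no library correlated with its own number beyond 0.1. At this depth a gene needed about 3 counts in a library to lie above the floor, and genes below the filter were not tested in the main fit. Without the filter 922 genes were called at least 2-fold higher and 867 at least 2-fold lower, against 835 and 761 with it.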

Other observations

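Of 18 apoptosis regulators 8 were higher and 6 lower with NH4Cl, near the 31.2% and 33.4% of all genes tested, with a median of 0.00 log2 units, so the counts are not a result about the list. TNFRSF10B, a receptor for the death ligand TRAIL, had 219, 215 and 219.9 CPM with NH4Cl, against 58.9, 58.3 and 61.7 CPM with glutamine and 237 ± 7.64 CPM with glucose alone. HRK and BBC3, which encode BH3-only proteins, were higher by 1.88 ± 0.1 and 1.5 ± 0.074, and MCL1, a protein that restrains cell death, by 0.94 ± 0.022 log2 units. BIRC3, for an inhibitor of apoptosis, went the other way at -1.12 ± 0.034 log2 units. Of 14 genes of polyamines and metallothioneins that passed the filter 9 were higher and 4 lower, beside 31.2% and 33.4% of all genes tested. MT1X, a metallothionein gene, had 11.9, 9.72 and 11.1 CPM with NH4Cl, against 0.902, 1.07 and 0.854 CPM with glutamine and 14.4 ± 0.842 CPM with glucose alone. SLC30A1, which exports zinc from the cell, had 50.01, 54.0 and 48.2 CPM with NH4Cl, against 5.24, 4.35 and 6.09 CPM with glutamine and 66.9 ± 1.04 CPM with glucose alone. For both genes all NH4Cl libraries lay above all glutamine libraries, by 3.53 ± 0.16 and 3.27 ± 0.075 log2 units. Metallothionein genes resemble each other, so the split of reads between them is uncertain. SMOX and SAT1, which break polyamines down, were higher by 1.00 ± 0.067 and 0.99 ± 0.043, and AMD1 and SRM, which make them, were lower at -0.88 ± 0.033 and -0.84 ± 0.037 log2 units.

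Of 15 targets and regulators of the hypoxia-inducible factors that passed the filter 8 were higher and 5 lower with NH4Cl. Of all genes tested 31.2% were higher and 33.4% lower. EPAS1, the gene of a hypoxia-inducible factor, had 17.2, 16.2 and 14.9 CPM with NH4Cl, against 1.92, 2.68 and 2.14 CPM with glutamine and 19.4 ± 1.22 CPM with glucose alone, a log2 change of 2.84 ± 0.12. ADM, for adrenomedullin, was lower at -0.74 ± 0.082 log2 units. Targets of YAP and TEAD went both ways too, 6 higher and 5 lower of 14, with a median of -0.01 log2 units. The counts of these lists are not read as a result about either list. CCN2, for a matrix-associated growth factor, had 206, 197 and 197 CPM with NH4Cl, against 77.2, 77.8 and 73.4 CPM with glutamine and 322 ± 5.27 CPM with glucose alone. ANKRD1, another target of YAP, had 3.01, 2.36 and 2.80 CPM with NH4Cl, against 7.22, 9.12 and 7.79 CPM with glutamine and 3.24 ± 0.0879 CPM with glucose alone. CCN2 was thus higher by 1.39 ± 0.031 and ANKRD1 lower at -1.56 ± 0.14 log2 units, and CCN2 lay below glucose alone. Of 21 interferon response genes that passed the filter 14 were lower and 2 higher, with a median of -0.32 log2 units. OAS3, an antiviral sensor of double-stranded RNA, had 15.4, 17.8 and 16.6 CPM with NH4Cl, against 52.0, 52.3 and 49.3 CPM with glutamine and 12.4 ± 0.872 CPM with glucose alone. Its log2 change was -1.62 ± 0.059, with the NH4Cl libraries far below glutamine and close to glucose alone. PSMB9, a subunit of the immunoproteasome, was lower at -1.22 ± 0.11 log2 units.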
